A study of Homo sapiens with 36 samples.

Results

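DUSP4, DUSP5, DUSP6, SPRY2, SPRY4, SPRED1, SPRED2, ETV4, ETV5 and PHLDA1 are genes that are switched on by signalling through the kinase ERK, and most of their products act back on that pathway. They were taken by gene symbol, and they were picked in part because DUSP6 was higher with the degrader #11 in these same libraries, so every difference between #11 and its control is given here as a description without a test. They are 10 of the 62757 genes listed in the files, and all 10 were among the 12356 genes with a mean of at least 64 counts in at least 1 group, which were tested.

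The cells were HCT-116, a human colorectal carcinoma line, either WT or FBXW7-/- (KO, obtained as an edited line). All KO cells received an esiRNA (a pool of short interfering RNAs) for 48 h. The KO groups were esiCT (control), esiHDAC4, and esiCT with #11, a VHL-recruiting PROTAC against class IIa HDACs, and each was untreated or treated for the last 24 h with 50 µM oxaliplatin (OXPT), a platinum drug that crosslinks DNA. The dose of #11 is 1 µM in the treatment entry of the labels and 10 µM in the description entry. The WT groups were untreated or treated with the same OXPT, but their titles name the control esiRNA and their treatment entries esiHDAC4, so what they were transfected with is not settled. Each of the 8 groups had 3 libraries, and the labels do not say that these were separate cultures, so p-values measure only the spread between libraries. A further 12 WT libraries, whose label entries contradict each other on OXPT, entered no comparison.

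ERK is the last kinase of the RAS, RAF, MEK and ERK cascade, which carries growth factor signals to the nucleus. When it is active it induces the genes of its own inhibitors, so the transcript levels of these feedback genes are widely read as an output of the pathway. The dual-specificity phosphatases remove the activating phosphates of ERK, DUSP6 in the cytoplasm and DUSP4 and DUSP5 in the nucleus. Sprouty and SPRED proteins act upstream, near RAS and RAF, and ETV4 and ETV5 are ETS transcription factors that carry the signal on.

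Promoter sequences are shown for the members on which the results below turn most and which the RefSeq table held, DUSP6, SPRY4 and PHLDA1. Each run holds 250 bases before and 50 after the start site, 5′ to 3′ on the gene's strand. Capitals mark a match, on either strand, to CGGAAG (the core bound by ETS factors) in DUSP6 and PHLDA1, or to TGACG (the core of the cAMP response element) in SPRY4. The windows are chr12:89352452-89352751 (DUSP6), chr5:142324198-142324497 (SPRY4) and chr12:76031727-76032026 (PHLDA1), all on the minus strand of GRCh38.p14.
DUSP6: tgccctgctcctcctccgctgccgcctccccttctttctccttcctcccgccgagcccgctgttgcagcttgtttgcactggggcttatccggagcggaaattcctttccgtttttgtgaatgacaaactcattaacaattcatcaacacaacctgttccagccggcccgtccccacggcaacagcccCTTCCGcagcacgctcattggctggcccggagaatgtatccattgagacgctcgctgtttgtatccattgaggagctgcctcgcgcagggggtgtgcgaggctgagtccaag
SPRY4: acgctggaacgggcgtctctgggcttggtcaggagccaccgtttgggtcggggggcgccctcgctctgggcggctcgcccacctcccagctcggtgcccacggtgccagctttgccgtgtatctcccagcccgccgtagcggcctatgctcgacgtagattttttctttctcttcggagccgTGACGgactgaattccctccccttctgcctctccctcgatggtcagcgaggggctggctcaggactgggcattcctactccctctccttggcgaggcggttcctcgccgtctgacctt
PHLDA1: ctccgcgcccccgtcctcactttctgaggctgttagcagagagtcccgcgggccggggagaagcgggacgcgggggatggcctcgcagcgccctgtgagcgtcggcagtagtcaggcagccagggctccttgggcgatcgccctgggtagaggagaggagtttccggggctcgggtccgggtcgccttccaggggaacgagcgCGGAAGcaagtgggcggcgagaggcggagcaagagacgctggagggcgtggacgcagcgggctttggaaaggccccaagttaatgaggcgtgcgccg
The RefSeq start used for SPRY4 lies inside the GENCODE 44 gene, which runs further upstream. CGGAAG or its complement was present in 19.5% of all 35116 promoters of this length and TGACG in 24.6%, so these matches are common letters and not evidence of a site. The AP-1 motif TGANTCA (7.71% of promoters) and the TATA box TATAAA (11.5%) had no match in these 3 windows. The table held windows for 6 of the 10 members.

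Libraries held between 10725966 and 20527222 unstranded counts on genes (median 14510758). The epithelial markers EPCAM, CDH1, KRT8, KRT18 and KRT19 were detected in every library, with EPCAM between 215 and 360 CPM (counts scaled to library size with TMM factors). Of the markers of other cells, PTPRC, PECAM1, COL3A1, DCN and ALB stayed below 1.5 CPM, whereas COL1A1 lay between 25.1 and 77.6 CPM. HDAC4 mRNA averaged 19.1 ± 5.46 CPM in untreated esiCT and 10.9 ± 3.48 in untreated esiHDAC4 cells, and 6.50 ± 0.91 and 3.88 ± 0.48 CPM after OXPT (SD, n = 3). In WT cells HDAC4 mRNA averaged 22.01 ± 3.45 CPM untreated and 8.98 ± 0.897 CPM after OXPT (SD, n = 3). Every WT library lay above every KO esiHDAC4 library of the same treatment. The WT libraries overlapped KO esiCT when untreated and lay above it after OXPT. FBXW7 mRNA was 16.9 ± 1.35 CPM in untreated KO esiCT and 21.1 ± 3.60 in WT cells (SD, n = 3), and transcript counts do not check the edit. In KO esiCT OXPT library 3, 22.3% of reads were unmapped, the highest share of the 24. WT untreated library 3 stood apart in several members, and results of members that rest on it are given with and without it.

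With OXPT, SPRY4 fell to less than the lowest untreated library in WT cells and in all 3 kinds of KO cells, and no other member was called in all 4. DUSP5 rose in KO esiCT and KO esiHDAC4 cells, DUSP4 rose in KO esiHDAC4 cells and PHLDA1 fell in #11-treated KO cells. A gene was called at an adjusted p under 0.05 in edgeR's quasi-likelihood test with Benjamini-Hochberg adjustment over all 12356 genes, together with a fold change over 1.5. By this rule 2 of 10 members were called in KO esiCT (11.3% of all genes tested), 3 of 10 in KO esiHDAC4 (12% of all genes), 2 of the 9 members tested in #11-treated KO (9.51%) and 1 of 10 in WT (10.7%). The count with #11 was 6 with only the groups compared, with or without the replicate block, 7 without the libraries of number 3, both with DUSP6 left without a test, and 1 to 4 with any 1 library left out. The count in KO esiCT was 4 with DESeq2 (1859 of all genes called) or without number 3. That in KO esiHDAC4 was 1 where every group had to average 64 counts. The main fit did not pair libraries by number. With the block over all 24 libraries the counts were 3, 3, 3 and 3 in KO esiCT, KO esiHDAC4, #11-treated KO and WT. The genes called with it were 1946, 2061, 1713 and 1885, against 1398, 1480, 1175 and 1322 in the main fit. Shares of all genes are not given for the other settings, so their counts are not set against all genes. Of the calls of the main fit, 1 was higher and 1 lower in KO esiCT (6.23% and 5.08% of all genes). In KO esiHDAC4 2 were higher and 1 lower (6.44% and 5.54%), with #11 0 and 2 (5.94% and 3.57%), and in WT 0 and 1 (5.1% and 5.6%). All 3 treated libraries lay above all 3 untreated ones for 2 members in KO esiCT (15.3% of all genes), 2 in KO esiHDAC4 (18.8%), 2 with #11 (22.4%) and 0 in WT (11.5%). They lay below them for 2, 3, 7 and 1 of the 10 members (14.8%, 16.6%, 20.1% and 9.81%). The median log2 fold change of the 10 members was -0.11 for KO esiCT, -0.19 for KO esiHDAC4, -0.60 for #11-treated KO and -0.16 for WT. Medians over all genes were 0.01, 0.02, -0.0024 and -0.06. The 7 members and the median with #11 include DUSP6. The members were picked in part on its level in these untreated libraries, so both are descriptions and not support. In these bulk libraries a lower level can mean fewer cells of a kind or less RNA per cell, which cannot be told apart.

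**Figure D1:**
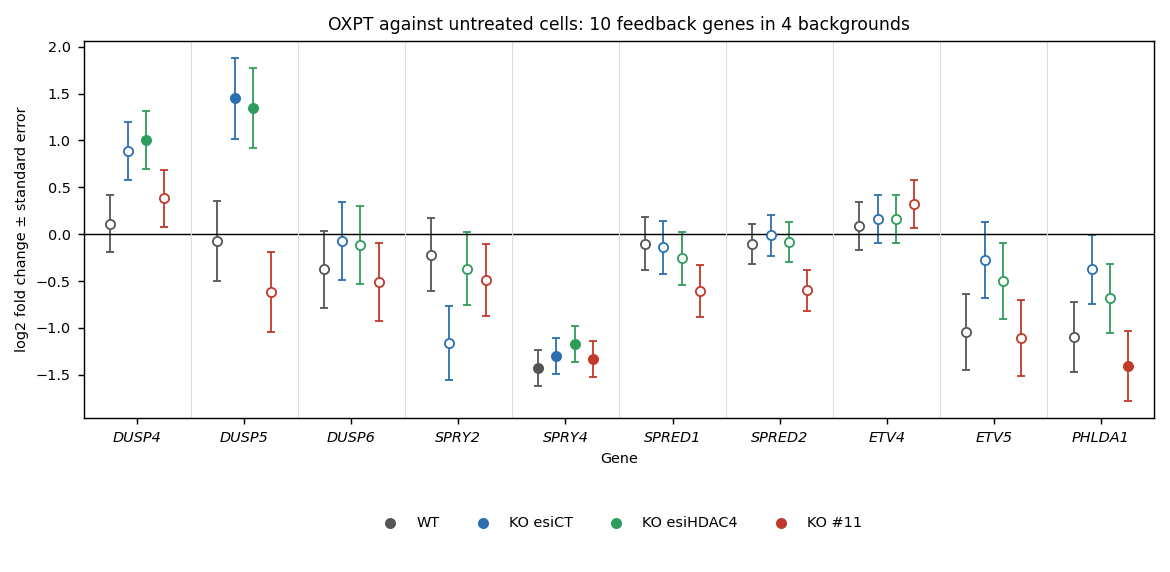
Log2 fold change of OXPT-treated against untreated cells (y axis, ± standard error, 3 libraries against 3) for the 10 feedback genes (x axis) in WT, KO esiCT, KO esiHDAC4 and KO #11 cells; filled points were called and open points were not, and the DUSP6 point of #11-treated cells is a description without a test. SPRY4 lies between -1.43 and -1.17 in all 4 backgrounds, whereas DUSP5 lies at 1.45 and 1.35 in KO esiCT and KO esiHDAC4 cells at -0.62 in #11-treated cells and at -0.07 in WT, where it is 1.28 without WT untreated library 3.

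DUSP6 (ENSG00000139318.8, chromosome 12: 89347235 to 89352501, minus strand), the cytoplasmic ERK phosphatase, was high in all #11 libraries and was called in no tested comparison. Its CPM in libraries 1, 2 and 3 were 138, 92.3 and 204 in untreated WT, 124, 90.5 and 216 in untreated KO esiCT, and 123, 104 and 172 in untreated KO esiHDAC4 cells. In each of these groups library 3 was the highest and library 2 the lowest, and the groups overlapped fully. With #11 the untreated KO libraries held 637, 705 and 432 CPM, all above every library without #11. After OXPT, DUSP6 measured 119, 76.0 and 140 CPM in WT, 112, 64.8 and 233 with esiCT, and 122, 72.0 and 173 with esiHDAC4 in KO cells. Each of these groups overlapped its untreated group. With both #11 and OXPT the values were 427, 412 and 403 CPM, again above every library without #11 and below every untreated #11 library. Ordered by group mean, the 6 groups without #11 lay between 111 ± 32.4 CPM (WT OXPT) and 145 ± 56.1 CPM (WT untreated), so neighbours in that order differed by less than their SD (n = 3). The means with #11 were 591 ± 142 CPM untreated and 414 ± 11.8 CPM after OXPT (SD, n = 3). For OXPT the log2 fold change of DUSP6 was -0.07 (SE, standard error of the fit, 0.42) for KO esiCT, -0.12 (0.41) for KO esiHDAC4 and -0.38 (0.42) for WT, with adjusted p of 0.936, 0.892 and 0.633 by edgeR's quasi-likelihood test. In #11-treated KO cells it was -0.51, given without a test.

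The gene of DUSP6 overlaps an antisense lncRNA gene (ENSG00000274021) on 1487 bases, and the libraries carried no strand information, so reads in the overlap could not be assigned. The unstranded counts of DUSP6 came to 79.5% of its forward-strand and reverse-strand counts together. For PHLDA1, which overlaps PHLDA1-AS1, this share was 58.4%, for ETV4, which overlaps DHX8, it was 91.6%. For the other 7 members this share was almost 100%. It does not show reads lost where genes overlap on the same strand. The bounds of SPRED2 overlap those of ENSG00000232693 on 6986 bases, and those of ETV5 overlap DGKG on 4651 bases, both on the same strand. Reads of a gene and of its antisense partner cannot be told apart in these libraries.

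DUSP5 (ENSG00000138166.6, chromosome 10: 110497907 to 110511533, plus strand), a nuclear phosphatase specific for ERK, rose with OXPT in KO cells without #11. Untreated KO esiCT libraries held 82.5, 114 and 92.5 CPM and OXPT-treated ones 241, 285 and 265 CPM. In KO esiHDAC4 cells the values were 86.3, 107 and 105 CPM untreated and 236, 255 and 266 CPM after OXPT. In both, all 3 treated libraries lay above all 3 untreated ones, by 2.73-fold and 2.54-fold on the means. The log2 fold changes were 1.45 (SE 0.43, adjusted p = 0.034) and 1.35 (SE 0.43, adjusted p = 0.046) by edgeR's quasi-likelihood test. With #11 the values were 215, 207 and 234 CPM untreated and 125, 120 and 183 CPM after OXPT, all 3 below all 3. That log2 fold change was -0.62 (SE 0.43, adjusted p = 0.41) and was not called, whereas with only the groups compared it was (adjusted p = 0.031, and with the block -0.64, adjusted p = 0.0071).

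In WT cells DUSP5 was carried by a single library. Untreated WT libraries held 164, 181 and 964 CPM and OXPT-treated ones 333, 405 and 505 CPM, so that library 3 alone lay above the treated range. With all libraries the log2 fold change was -0.07 (SE 0.42, adjusted p = 0.944 by edgeR). Without WT untreated library 3 it was 1.28 (adjusted p = 5.0e-04), and the values in KO esiCT, KO esiHDAC4 and #11-treated KO cells became 1.44 (adjusted p = 3.5e-05), 1.33 (6.9e-05) and -0.65 (adjusted p = 0.026), all called by edgeR. With that library kept, the KO esiCT call was lost when KO esiCT OXPT library 2 or 3 or any untreated KO esiCT library was left out (adjusted p = 0.069 to 0.138), and the KO esiHDAC4 call was lost in 18 of 24 such fits (adjusted p up to 0.175), with log2 fold changes between 1.21 and 1.40. The KO esiHDAC4 call was also lost with the reverse-strand column (adjusted p = 0.059), the forward-strand column (0.057) and at least 64 counts in every group (0.068).

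DUSP4 (ENSG00000120875.9, chromosome 8: 29333064 to 29350684, minus strand), a nuclear phosphatase of ERK and related kinases, rose with OXPT in KO esiHDAC4 cells. Untreated KO esiCT libraries held 97.4, 108 and 160 CPM and treated ones 167, 204 and 305 CPM. Untreated KO esiHDAC4 libraries held 91.8, 101 and 139 CPM and treated ones 193, 213 and 260 CPM. All treated libraries lay above all untreated ones in both, and in all 4 groups library 3 was the highest. The log2 fold change was 1.01 (SE 0.31, adjusted p = 0.036, edgeR) in KO esiHDAC4 cells, where DUSP4 rose, and 0.89 (SE 0.31, adjusted p = 0.066) in KO esiCT cells, where it was not called. With the library number as a block the KO esiCT value was 0.88 and was called (adjusted p = 0.0019), and without WT untreated library 3 it was also called (0.88, adjusted p = 0.015). The KO esiHDAC4 call was lost without KO esiHDAC4 OXPT library 2 or 3, untreated library 1 or 2, or untreated #11 library 2 (adjusted p = 0.056 to 0.173). With #11, DUSP4 measured 128, 132 and 159 CPM untreated and 178, 163 and 205 CPM after OXPT, all above without a call (log2 fold change 0.38, standard error 0.30). In WT the values were 191, 193 and 454 CPM untreated and 244, 272 and 390 CPM after OXPT, and the log2 fold change was 0.11 (SE 0.30). Without WT untreated library 3 all treated libraries lay above the others and the value was 0.66, not called (adjusted p = 0.094 by edgeR).

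SPRY4 (ENSG00000187678.10, chromosome 5: 142310427 to 142326455, minus strand), a Sprouty protein that restrains receptor signalling to RAS and RAF, was the member that fell with OXPT in every background. WT libraries held 78.0, 103 and 111 CPM untreated and 38.1, 32.96 and 37.7 CPM after OXPT. KO esiCT libraries held 86.5, 100.3 and 110 CPM untreated and 45.6, 42.9 and 32.0 CPM after OXPT. In KO esiHDAC4 cells the values were 60.5, 70.3 and 83.9 CPM untreated and 39.1, 25.5 and 30.7 CPM after OXPT. With #11 both sets lay higher, at 187, 198 and 184 CPM untreated and 71.9, 69.2 and 85.0 CPM after OXPT. All 3 treated libraries lay below all 3 untreated ones in each background. The log2 fold changes were -1.43 for WT (SE 0.19, adjusted p = 5.7e-05), -1.30 for KO esiCT (0.19, adjusted p = 1.3e-04), -1.17 for KO esiHDAC4 (0.19, adjusted p = 3.9e-04) and -1.33 in #11-treated KO cells (0.19, adjusted p = 1.1e-04) by edgeR's quasi-likelihood test. On the means these are 2.69-fold, 2.46-fold, 2.25-fold and 2.52-fold lower. Each call was kept in all 34 alternatives.

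SPRY2 (ENSG00000136158.12, chromosome 13: 80335976 to 80341126, minus strand), the other Sprouty gene, was the least abundant member, with 13 to 214 raw counts per library. KO esiCT libraries held 6.15, 6.95 and 8.58 CPM untreated and 4.71, 3.18 and 1.55 CPM after OXPT, without overlap. Its log2 fold change there was -1.16 (SE 0.40, adjusted p = 0.064 by edgeR) and was not called, though DESeq2 called it. The lowest of these values came from KO esiCT OXPT library 3, the library with the most unmapped reads, whose part in this was not tested. In KO esiHDAC4 cells the levels were 7.30, 6.39 and 7.56 CPM untreated and 6.93, 3.69 and 5.83 CPM after OXPT, and in WT cells 6.26, 7.71 and 5.04 against 4.27, 5.43 and 6.73 CPM. With #11 they were 7.85, 10.1 and 12.3 CPM untreated and 3.69, 5.46 and 12.4 CPM after OXPT. These last 3 pairs of groups overlapped, with log2 fold changes of -0.37, -0.22 and -0.49. Without the libraries of number 3 SPRY2 was called with #11 (-1.03, adjusted p = 0.029 by edgeR).

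SPRED1 (ENSG00000166068.13, chromosome 15: 38252836 to 38357249, plus strand), which brings the RAS inhibitor neurofibromin to the membrane, was not called in any tested comparison in the fit over all 24 libraries. KO esiCT libraries held 31.6, 29.3 and 38.2 CPM untreated and 34.5, 20.2 and 35.2 CPM after OXPT, and KO esiHDAC4 libraries 40.1, 36.02 and 41.5 against 44.4, 27.3 and 26.5 CPM. WT libraries held 25.3, 42.8 and 17.2 CPM untreated and 27.7, 28.7 and 23.3 CPM after OXPT. The groups overlapped in all 3. With #11 they did not, at 44.3, 46.3 and 45.3 CPM untreated and 28.0, 25.0 and 36.1 CPM after OXPT, with a log2 fold change of -0.61 (SE 0.28, adjusted p = 0.193 by edgeR). With only the groups compared it was called at the same -0.61 (adjusted p = 0.026, and with the block -0.62, adjusted p = 0.016), and without the libraries of number 3 it was also called (-0.82, adjusted p = 0.042). SPRED2 (ENSG00000198369.10, chromosome 2: 65310851 to 65432637, minus strand), its close relative, ranged from 42.6 to 87.3 CPM over the 24 libraries. SPRED2 was not called with OXPT in any background in the fit over all 24 libraries, with log2 fold changes of -0.01 for KO esiCT, -0.08 for KO esiHDAC4, -0.11 for WT and -0.60 with #11 (SE 0.22, adjusted p = 0.089, edgeR), the only one of these without overlap. In #11-treated cells it was called by DESeq2 (-0.61, adjusted p = 0.045), with only the groups compared (-0.60, adjusted p = 0.026, and with the block -0.59, adjusted p = 0.021) and without the libraries of number 3 (-0.82, adjusted p = 0.0092).

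ETV4 (ENSG00000175832.13, chromosome 17: 43527844 to 43579620, minus strand) and ETV5 are PEA3-type ETS factors that ERK activates and induces. ETV4 ranged from 61.7 to 137 CPM, and its highest group mean was 1.63 times its lowest. Its log2 fold changes with OXPT were between 0.09 (WT) and 0.32 (#11-treated KO), and it was called in none of the tested comparisons. ETV5 (ENSG00000244405.8, chromosome 3: 186046314 to 186110318, minus strand) held 170, 176 and 133 CPM in untreated #11 libraries and 77.3, 69.8 and 75.2 CPM after OXPT, without overlap. In WT cells it held 48.8, 60.3 and 166 CPM untreated and 34.3, 38.9 and 60.4 CPM after OXPT, and the groups overlapped narrowly. The ETV5 log2 fold changes were -1.11 (SE 0.41, adjusted p = 0.094) and -1.04 (0.41, adjusted p = 0.108) by edgeR and were not called. With the library number as a block both were called, at -1.14 (adjusted p = 0.018) and -0.95 (adjusted p = 0.044), whereas without WT untreated library 3 the WT value was -0.29 (adjusted p = 0.587) and the #11 value -1.13 (adjusted p = 0.026). With only the groups compared the #11 value was also called (-1.10, adjusted p = 9.8e-04). In KO esiCT cells ETV5 measured 44.2, 48.9 and 107 CPM untreated and 41.8, 38.1 and 86.2 CPM after OXPT, and with esiHDAC4 70.9, 67.1 and 82.2 against 58.0, 38.6 and 59.1 CPM, with log2 fold changes of -0.27 and -0.50.

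PHLDA1 (ENSG00000139289.15, chromosome 12: 76025447 to 76031776, minus strand), a PH-like domain protein induced by growth factors, fell with OXPT in #11-treated cells. Untreated #11 libraries held 685, 732 and 585 CPM and treated ones 249.9, 229 and 277 CPM, so every treated library was below every untreated one. The mean was 2.65-fold lower, with a log2 fold change of -1.41 (SE 0.37, adjusted p = 0.021 by edgeR). This call was lost without untreated #11 library 1 or 2 or OXPT-treated #11 library 1 or 2 (adjusted p = 0.055 to 0.092) and kept without any of the other 20. In KO esiHDAC4 cells PHLDA1 held 297, 271 and 358 CPM untreated and 200.2, 162 and 214 CPM after OXPT, without overlap, and the log2 fold change was -0.68 (SE 0.37). It was called without the libraries of number 3 (-0.65, adjusted p = 0.0071 by edgeR) and with only the groups compared (-0.71, adjusted p = 0.048). In KO esiCT cells it was called without the libraries of number 3 (-0.60, adjusted p = 0.012). KO esiCT libraries held 254, 239.6 and 373 CPM untreated and 173, 152 and 344 CPM after OXPT, and overlapped at a log2 fold change of -0.38. In WT the values were 261, 304 and 897 CPM against 181, 194 and 307 CPM, with a log2 fold change of -1.10 (SE 0.37, adjusted p = 0.063, edgeR). With the library number as a block the WT value was -1.002 and was called (adjusted p = 0.019), and without WT untreated library 3 it was -0.31 (adjusted p = 0.476).

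The comparison of #11 with esiCT alone in KO cells is the one the members were picked on. In untreated cells all 10 members had a log2 fold change above 0, against 49.6% of all genes tested, with a median of 0.75 against -0.0034. DUSP6 had the highest, 2.04, followed by ETV5 (1.254), PHLDA1 (1.21), DUSP5 (1.18), SPRY4 (0.94), SPRED2 (0.56), SPRY2 (0.48), SPRED1 (0.45), ETV4 (0.33) and DUSP4 (0.20). The DUSP6 mean was 4.13-fold that of esiCT. In 7 of the 10 members, all but DUSP4, SPRY2 and SPRED2, every #11 library lay above every esiCT library, as in 17.2% of all genes, and none lay wholly below (14.8%). Without the 8 libraries of number 3, the DUSP6 value was 2.66.

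Under OXPT, 6 of 10 log2 fold changes of #11 against esiCT were above 0 (48.4% of all genes), with a median of 0.30 against -0.01. They were 1.60 for DUSP6, 1.15 for SPRY2, 0.91 for SPRY4, 0.49 for ETV4, 0.42 for ETV5, 0.18 for PHLDA1, -0.01 for SPRED1, -0.03 for SPRED2, -0.30 for DUSP4 and -0.88 for DUSP5. DUSP6 and SPRY4 were above esiCT in every library and DUSP5 was below it in every library, and the other 7 overlapped. The shares of all genes with such separation were 9.46% above and 4.89% below. The untreated #11 libraries enter both the #11 contrast and the OXPT response of #11-treated cells, so the higher starting levels of DUSP5, ETV5 and PHLDA1 and their log2 fold changes with OXPT are not independent.

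**Figure D2:**
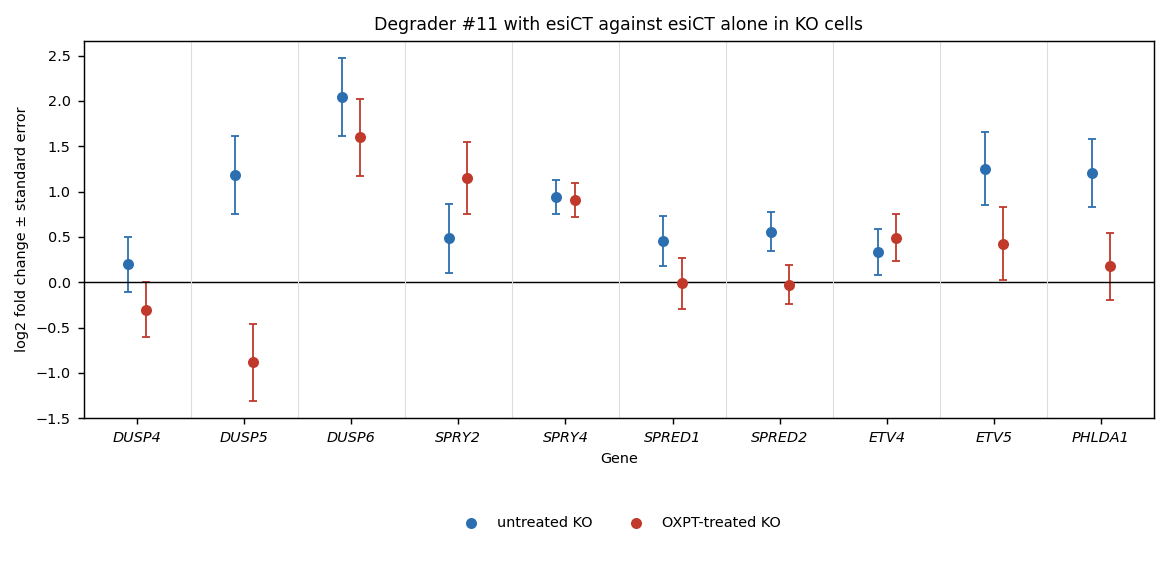
Log2 fold change of #11 with esiCT against esiCT alone in KO cells (y axis, ± standard error, 3 libraries against 3) for the 10 feedback genes (x axis), in untreated (blue) and OXPT-treated (red) cells, given as a description since the members were picked on it. In untreated cells all 10 points lie above 0, from 0.20 for DUSP4 to 2.04 for DUSP6, and under OXPT they spread from -0.88 for DUSP5 to 1.60 for DUSP6.

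Silencing of HDAC4 by esiRNA, HDAC4 being a class IIa HDAC, moved none of the members past the call rule. In untreated KO cells 0 of 10 members were called by edgeR and 0 by DESeq2 (0.00809% of all genes by edgeR). All esiHDAC4 libraries lay below all esiCT ones for 1 member and above for 0 (12.1% and 9.61% of all genes). SPRY4 was the 1 member with an unadjusted p under 0.05 by edgeR, as were 394 of the 12356 genes tested. Its levels of 60.5, 70.3 and 83.9 CPM lay below the 86.5, 100.3 and 110 CPM of esiCT in every library, with a log2 fold change of -0.47 (SE 0.19, adjusted p near 1 by edgeR). The highest value was that of SPRED1, 0.25 (SE 0.28). DUSP6 was at -0.11 (SE 0.41). Under OXPT, 0 members were called by edgeR or DESeq2 (0% of all genes by edgeR) and 0 had an unadjusted p under 0.05 by edgeR (380 of the 12356 genes tested). The values there ran from -0.34 for SPRY4 to 0.76 for SPRY2 (SE 0.40), and the groups of all 10 members overlapped (2.1% of all genes lay wholly above and 2.51% wholly below). The OXPT response with esiHDAC4 minus that with esiCT was tested as an interaction in the same edgeR fit. It had 0 members called (0% of all genes), 0 by DESeq2 and 0 at an unadjusted p under 0.05 by edgeR (19 of the 12356 genes tested). It ran from -0.31 for PHLDA1 to 0.79 for SPRY2.

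Between untreated KO esiCT and WT cells DUSP5 was called lower in KO, a call that many of the alternatives lost. Untreated DUSP5 measured 82.5, 114 and 92.5 CPM in KO and 164, 181 and 964 CPM in WT, so all KO libraries were below all WT ones. DUSP5 was the 1 member called, with a log2 fold change of -2.17 (SE 0.44, adjusted p = 0.033 by edgeR), where 0.291% of all genes were called. Without WT untreated library 3 it was -0.83 and was not called (adjusted p = 0.184), and the call was also lost without any of the untreated KO esiCT libraries (adjusted p = 0.143 to 0.268) or #11 OXPT library 1 (0.055). It was lost as well without the libraries of number 3 (-0.80, adjusted p = 0.086), with at least 64 counts in every group (adjusted p = 0.084), and with only the groups compared, without the replicate block (-2.19) or with it (-1.63, both with an adjusted p near 1). DUSP4 measured 97.4, 108 and 160 CPM in KO and 191, 193 and 454 CPM in WT, again without overlap. Its log2 fold change was -1.20 (SE 0.31, adjusted p = 0.148 by edgeR), with the block -1.14 and called (adjusted p = 0.0019), and without WT untreated library 3 -0.66 (adjusted p near 1). Thus 2 members lay wholly below and 0 wholly above (3.52% and 2.88% of all genes), the other 8 members overlapped, and DUSP6 and SPRY4 had values of -0.01 and 0.02. The labels do not settle the esiRNA of the WT cells. Their HDAC4 mRNA lay above that of KO esiHDAC4 cells, as given above, but which esiRNA they received was not tested. Genotype and esiRNA therefore cannot be told apart in this comparison.

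After OXPT, 0 of 10 members were called between KO esiCT and WT by edgeR or DESeq2 (0.138% of all genes by edgeR). An unadjusted p under 0.05 by edgeR was reached by 0 members and by 667 of the 12356 genes tested. The values ran from -0.76 for SPRY2 to 0.31 for ETV5, and DUSP5, at -0.65 (SE 0.42), was the 1 member wholly below WT (4.11% of all genes, with 2.28% wholly above), with 241, 285 and 265 CPM in KO and 333, 405 and 505 CPM in WT. The difference of the OXPT responses, KO minus WT, was called for 0 members by edgeR or DESeq2 (0% of all genes). DUSP5 was the 1 member with an unadjusted p under 0.05 by edgeR, as were 201 of the 12356 genes tested. Its value was 1.52 (SE 0.60), and without WT untreated library 3 this became 0.17.

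Within groups the members did not vary independently, and part of their spread followed the library number. DUSP4, DUSP6, ETV4, ETV5 and PHLDA1 were higher in library 3 than in the mean of libraries 1 and 2 in all 6 groups without #11. The median excess over these groups, on the log2 scale, was 0.92 for ETV5, 0.87 for DUSP6, 0.65 for PHLDA1, 0.62 for DUSP4 and 0.56 for ETV4. With #11 this order was absent for DUSP6 and ETV4, whose library 3 lay below the mean of the others in both groups. For SPRY4, library 3 was above in 4 of the 6 groups, with a median of 0.17, and its libraries differed by at most 1.53-fold within any group, the smallest such range of the 10. The other end was DUSP5, with 5.89-fold in untreated WT. Deviations from the group mean over the 24 libraries had Pearson's r of 0.96 for ETV5 with PHLDA1, 0.93 for ETV4 with PHLDA1, 0.88 for ETV4 with ETV5, 0.89 for DUSP4 with PHLDA1 and 0.86 for DUSP6 with ETV4, a description, since the members share libraries and their depth. SPRY4 stood outside this set, with r between 0.08 (ETV4) and 0.30 (ETV5) to DUSP4, DUSP6, ETV4, ETV5 and PHLDA1. It was not alone in this. To the same genes r was between -0.26 and -0.11 for SPRY2, -0.31 and 0.06 for SPRED1, and 0.12 and 0.40 for SPRED2. What a library number stands for is not stated in the labels. Results were also computed with the number as a block and without the libraries of number 3.

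**Figure D3:**
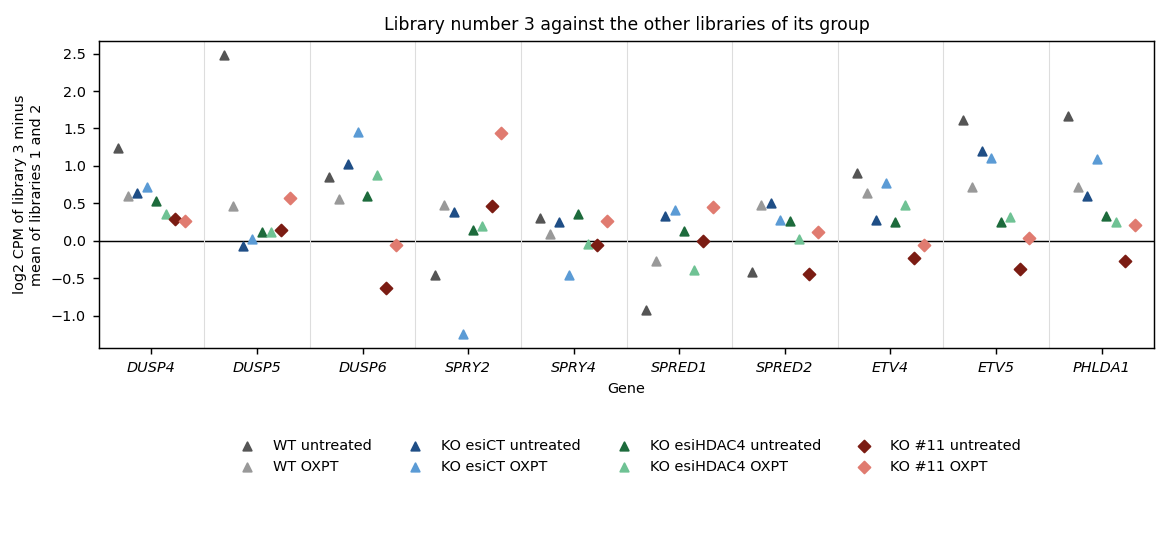
Log2 CPM of library 3 minus the mean of libraries 1 and 2 of the same group (y axis) for each of the 10 feedback genes (x axis) and each of 8 groups (colours; triangles without #11, diamonds with #11). For DUSP4, DUSP6, ETV4, ETV5 and PHLDA1 all 6 triangles lie above 0, and the highest point is DUSP5 in untreated WT, at 2.49.

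Levels were compared between genes per length of exon, as CPM per kb, and the order at the top differed between groups. DUSP5 had the highest group mean in untreated WT (172), WT OXPT (164), KO esiCT OXPT (104) and KO esiHDAC4 OXPT (99.6 CPM per kb). PHLDA1 was highest in untreated KO esiCT (48.9) and untreated KO esiHDAC4 cells (52.2), where DUSP5 had 38.1 and 39.2 CPM per kb. DUSP6 was highest with #11, at 153 CPM per kb untreated and 107 after OXPT, where PHLDA1 had 113 and 42.6 CPM per kb. The unstranded counts were 58.4% of both strand columns together for PHLDA1 and 79.5% for DUSP6, while the length counts all exon bases. Both levels can therefore be too low, that of PHLDA1 more so. The order of DUSP6 and PHLDA1 in untreated #11 cells is thus not settled. The medians over the 24 libraries were lowest for SPRED1 (4.26 CPM per kb) and SPRY2 (1.97). The genes whose log2 CPM followed that of DUSP6 most closely over the 24 libraries were SPTSSB (Pearson's r = 0.92), CCDC92 (0.90), SHC2 (0.89), KLRK1-AS1 (0.88) and CTHRC1 (0.88). Among the members, ETV5 (r = 0.80) and ETV4 (0.77) were the closest to DUSP6, at ranks 62 and 111 of 12355 genes, whereas DUSP4 (-0.09) and DUSP5 (-0.08) did not follow it. The points include the 6 libraries with #11, and these correlations carry no test.

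Other genes of the pathway were counted from lists drawn from general knowledge. Of 12 tested relatives of the members (SPRY3 did not pass the count minimum), PHLDA3, a p53 target, rose with OXPT in all 4 backgrounds by log2 fold changes of 2.69 (KO esiCT), 2.76 (KO esiHDAC4), 2.63 (with #11) and 2.18 (WT). It was the 1 relative called in KO esiCT (11.3% of all genes) and in WT (10.7%), with 3 called in KO esiHDAC4 (12%) and 2 with #11 (9.51%). DUSP7 and DUSP2, phosphatases of ERK, were also called higher in KO esiHDAC4 cells, by 0.62 and 0.80, and DUSP7 in #11-treated cells, by 0.71. Their means rose in the other backgrounds too, without a call. DUSP7 went from 33.5 to 49.7 CPM in KO esiCT and from 39.1 to 55.7 CPM in WT cells. DUSP2 went from 16.1 to 21.6 CPM in KO esiCT, from 19.3 to 31.4 CPM with #11 and from 18.6 to 26.7 CPM in WT. These calls are thus not particular to esiHDAC4 or #11. No relative was called lower in any tested comparison. ETV1, the third PEA3-type factor, had log2 fold changes with OXPT between -1.46 and -1.27 in the 4 backgrounds and was not called (adjusted p = 0.146 to 0.229 by edgeR). With #11 in untreated cells the highest log2 fold changes of relatives, described without a test, were those of the phosphatase genes DUSP1 (1.73), DUSP8 (1.29) and DUSP16 (1.13), which were singled out after their values were seen.

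Of 26 genes of the cascade itself, from receptors through RAS, RAF and MEK to ERK and its kinases, RPS6KA1 was the 1 gene called with OXPT in each background. Of all genes tested, 11.3% were called in KO esiCT, 12% in KO esiHDAC4, 9.51% with #11 and 10.7% in WT. RPS6KA1, the gene of RSK1, a kinase downstream of ERK, rose by log2 fold changes of 0.62 (KO esiCT), 0.74 (KO esiHDAC4), 1.28 (with #11) and 0.96 (WT). No cascade gene was called lower, against 5.08%, 5.54%, 3.57% and 5.6% of all genes with OXPT in these backgrounds. None was called in the comparisons of esiHDAC4 or of KO with WT, where at most 0.291% of all genes were. Of 9 other ERK output genes tested (EPHA4 did not pass the count minimum), 1 was called with OXPT in KO esiCT, 2 in KO esiHDAC4, 2 with #11 and 1 in WT. EPHA2, a receptor tyrosine kinase, rose with OXPT in KO esiCT (1.57) and KO esiHDAC4 cells (1.46), and LIF, a cytokine, rose in KO esiHDAC4 cells (1.01). In WT the EPHA2 mean went from 293 to 582 CPM without a call, with untreated libraries between 134 and 579 CPM. With #11 it went from 315 to 325 CPM. EGR1, an immediate early transcription factor, fell by 2.14 and ERRFI1, a feedback inhibitor of EGFR, fell by 2.04 on the log2 scale in #11-treated cells. Their untreated means with #11 were 432 and 892 CPM, against 101 and 404 CPM with esiCT. After OXPT the means were 98.2 and 217 CPM with #11 and 73.5 and 291 CPM with esiCT. The higher starting levels with #11 and these falls are not independent. ERRFI1 also fell in WT, by 1.46. It was lower in untreated KO esiCT than in untreated WT cells, by a log2 fold change of -1.62 (adjusted p = 0.017 by edgeR), where 0.291% of all genes were called. Its untreated WT libraries spanned 718 to 1922 CPM. For genes other than the members, values without WT untreated library 3 are not given. The esiRNA of the WT cells is not settled, so genotype and esiRNA cannot be told apart here either.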

How the data were processed

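RNA-seq gene counts of 36 HCT-116 libraries were used, 24 of them in 8 groups of 3. The authors deposited counts per gene in unstranded, forward-strand and reverse-strand columns, and the submitters' processing notes name STAR 2.7.11a, Trimmomatic 0.39 and hg38 without saying which did what. The study's methods describe another route for its own tests, salmon with DESeq2. Reverse-strand over forward-strand counts were between 1.00 and 1.02 in every library, so the unstranded column was used and the stranded columns were alternatives. Rows that name no gene were left out of library sizes. Genes with a mean of at least 64 counts in at least 1 group (12356) were fitted over the 24 libraries with TMM factors and the quasi-likelihood test of edgeR 4.0.16 (R 4.3.3), with Benjamini-Hochberg adjustment. A call needed an adjusted p below 0.05 and more than a 1.5-fold change. Log2 CPM used a prior count of 2. DESeq2 1.42.0, other filters, the stranded columns, the replicate block and leaving out each library were alternatives, and the fits were tested on simulated data.

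The members and the gene lists were chosen with earlier results of these data known. All 10 members are named, as are the cell markers and the 5 genes most correlated with DUSP6. Other listed genes are named where called, with exceptions. ETV1, DUSP1, DUSP8 and DUSP16 are named though called in no tested comparison, and SPRY3 and EPHA4 because they missed the count minimum. Motifs were searched after the promoters had been seen. Coordinates are from GENCODE 44 on GRCh38, in which 62130 of 62757 gene IDs matched with their version. The 24 pairs of libraries within a group differed with a chi-square per degree of freedom of 8.31 to 224, and 0 were identical. Libraries of the same number deviated together in the 10 tested comparisons (correlations of 0.113 to 0.788) and not in the 2 of #11 against esiCT (-0.252 to 0.128). The numbers were therefore taken to pair the former, under the rule that every same-number correlation be above 0.1. This pairing comes from the numbers in the labels and the data. Correlations between libraries of different numbers ran from -0.712 to 0.707 in the tested comparisons and so overlapped those of the same number. The main fit left the number out and so ignored this pairing, and the block was only an alternative. The 12 libraries with contradictory labels were left out. All levels carry counting error that shrinks with depth, and SPRY2, at 13 counts in its lowest library, is the least precise.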

Additional observations from a re-analysis of the deposited data

Results flagged for a closer look

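The 12 WT libraries that entered no comparison were scaled together with the others, and for every member their highest level lay above the highest of the 3 untreated WT libraries, which is why they are listed. For the phosphatases the highest levels were 514 CPM for DUSP4, 1280 CPM for DUSP5 (1279.6 before rounding) and 348 CPM for DUSP6. SPRY2 reached 8.53 CPM, SPRY4 147 CPM, SPRED1 46.4 CPM and SPRED2 101 CPM (100.7 before rounding). ETV4 reached 119 CPM, ETV5 191 CPM and PHLDA1 1121 CPM. The highest of 12 libraries is set beside the highest of 3, and the libraries' treatment is not settled, so no comparison was made.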

How the results depend on the processing

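The 9 calls of members gave 306 values under 34 alternatives, of which 261 were still called, 45 were not and 0 had the sign turned. The SPRY4 calls were kept in all of them. Of 91 uncalled pairs of member and comparison, 56 changed sign under at least 1 alternative, so their directions carry little weight. The cause of the changes in counts was not tested.

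The number of members called with OXPT in KO esiCT was 2, and 4 with DESeq2 or without the libraries of number 3. In KO esiHDAC4 it was 3, and 1 with at least 64 counts required in every group. In #11-treated KO it was 2, and 7 without number 3. In WT it was 1, and 2 with the reverse-strand column, the forward-strand column, DESeq2 or without number 3, and 3 with no filter. Between untreated KO esiCT and WT it was 1, 2 with no filter or DESeq2, and 0 with 64 counts in every group. With 1 library left out these counts ranged from 1 to 4, 1 to 3, 1 to 4, 1 to 3 and 0 to 2, in that order, and the other 5 counts were 0 throughout. Shares of all genes are not given beside these counts. They describe how the calls moved and are not set against all genes. For #11 against esiCT the DUSP6 log2 fold change was 2.04 in untreated cells (2.66 without number 3, 1.79 to 2.46 with 1 library left out) and 1.60 under OXPT (1.26 to 2.20).

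With the replicate block over all 24 libraries, the count with OXPT was 3 in KO esiCT, KO esiHDAC4, #11-treated KO and WT. It was 2 between untreated KO esiCT and WT, where 75 of all genes were called, against 36 in the main fit. With only the groups compared, the count was 6 with OXPT in #11-treated KO and 0 between untreated KO esiCT and WT, both with the replicate block and without it. No share of all genes is given for that setting. Its counts describe how the calls moved and are not a result about the members.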
